A study of Mus musculus with 6 samples.

Results

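The 9 chemokine genes Ccl20, Ccl25, Ccl28, Cxcl1, Cxcl2, Cxcl5, Cxcl10, Cxcl16 and Cx3cl1 and the chemokine receptor gene Cxcr4 were examined in mouse colon epithelium. These 10 genes, of 52550 listed, were taken by symbol as chemokines known from colon epithelium together with 1 receptor. They were chosen with earlier results of these data known. The expression filter of at least 1 FPKM in at least 3 samples was reached by 9 of the 10, not by Ccl25. FPKM is fragments scaled to transcript length and to the size of the library.

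RNA-seq had been carried out on 6 colon epithelial samples of male C57BL/6 mice (C57BL/6 J in the study's methods), 3 labelled Zfp90fl/fl and 3 with a deletion of the zinc finger gene Zfp90 in the intestinal epithelium (Zfp90ΔIEC). In the floxed allele, exon 4 and the 3′ UTR are flanked by loxP sites, and Cre driven by the Villin promoter removes them in epithelial cells of the gut. All 6 mice, aged 6 to 8 weeks at the outset, had received the carcinogen azoxymethane (AOM, 10 mg/kg) and, after 5 days, 3 cycles of 2% dextran sulfate sodium (DSS) in the drinking water for 7 days with 14 days of plain water after each, and were killed on day 80. Age and DSS concentration are those of the labels, and the study's methods give another DSS concentration and a single age. Epithelium was released from the colon with EDTA and DTT, so that cells lying within the epithelial layer came with it, and no untreated group was analysed here. Mice were housed by genotype after weaning, and a difference between cages cannot be told apart from one between genotypes. The genotype label of replicates 2 and 3 of the knockout group carries the names Zfp91 and Zfp92, and the grouping therefore rests on the sample titles.

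Chemokines are small secreted or membrane-bound proteins that direct leukocytes along a gradient through receptors on the leukocyte surface. They are classed by the spacing of their first cysteines: adjacent in the CC class, separated by 1 residue in the CXC class and by 3 residues in the CX3C class. CXC chemokines with glutamate, leucine and arginine just before the first cysteine (the ELR motif) attract mainly neutrophils. In the colon, epithelial cells release chemokines at rest, as with the mucosal homing signal Ccl28, and in response to bacterial products and cytokines that act through NF-kB or interferon signalling, as with Ccl20, Cxcl1 and Cxcl10.

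The cysteine codons that define these classes are printed here for 1 transcript of each of the 9 chemokines, since the results are ordered by class. Cysteine codons, and the glutamate, leucine and arginine codons of the ELR genes, are in capitals. The stretches are coding sequence, written 5′ to 3′ on the coding strand from GENCODE M21 transcripts (GRCm38), and each runs from 6 codons before the first cysteine to 2 codons after the last one shown.
Ccl20, CC, chr1:83116899-83117824, plus strand, joined across exons 1 and 2: gaagcaagcaactacgacTGTTGCctctcg
Ccl25, CC, chr8:4349891-4353908, plus strand, joined across exons 2 and 3: caaggtgcctttgaagacTGCTGCctgggt
Ccl28, CC, chr13:119645874-119645903, plus strand, exon 2: cttcccatggcctccagcTGTTGCactgag
Cxcl1, CXC, chr5:90891478-90891510, plus strand, exon 2: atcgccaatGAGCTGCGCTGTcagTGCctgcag
Cxcl2, CXC, chr5:90904124-90904156, plus strand, exon 2: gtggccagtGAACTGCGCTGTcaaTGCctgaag
Cxcl5, CXC, chr5:90759709-90759741, plus strand, exon 2: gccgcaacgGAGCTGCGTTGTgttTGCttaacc
Cxcl10, CXC, chr5:92348175-92348207, minus strand, exon 2: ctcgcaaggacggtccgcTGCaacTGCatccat
Cxcl16, CXC, chr11:70459121-70459153, minus strand, exon 2: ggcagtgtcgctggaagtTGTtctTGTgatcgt
Cx3cl1, CX3C, chr8:94778033-94778071, plus strand, exon 2: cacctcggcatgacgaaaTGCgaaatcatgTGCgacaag
Cxcl5, Cxcl1 and Cxcl2, the 3 genes with the ELR codons, lie on the same strand of chromosome 5, with 10756 bases between Cxcl1 and Cxcl2. Genes on the opposite strand overlap Ccl25 (Elavl1), Cxcl10 (Art3) and Cxcl16 (Zmynd15). The libraries kept strand, but whether the counting used it is not given in the sources used here, so the values of these 3 genes are uncertain to that extent.

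Epithelial markers were high in every sample, with Epcam at a mean of 583 ± 27.7 FPKM (SD, n = 3) in Zfp90fl/fl mice and 574 ± 15.3 FPKM in Zfp90ΔIEC mice, and summed FPKM of 8 epithelial genes of 6074 to 6897 and 6016 to 6598. Zfp90 itself was at 0.630, 0.490 and 0.569 FPKM in the Zfp90fl/fl samples and 0.0846, 0.195 and 0.166 FPKM in the Zfp90ΔIEC samples, without overlap. Steps in the low FPKM values gave an estimated depth of 25800000 to 28700000 fragments per sample. The samples were alike over all genes, with Pearson correlations between 0.980 and 0.990. Leukocyte RNA was low in all samples and lower in the Zfp90ΔIEC samples: the 3 pan-leukocyte genes Laptm5, Coro1a and Ptprc summed to 2.90 to 3.46 FPKM against 1.13 to 2.00 FPKM.

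**Figure D1:**
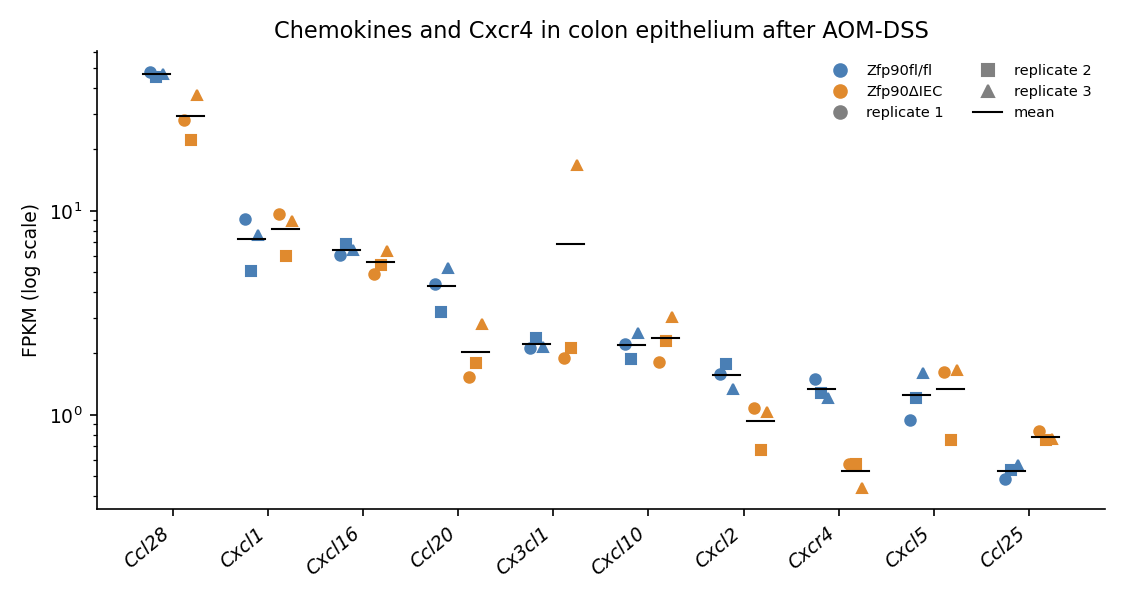
FPKM on a log scale (vertical axis) of the 10 genes in each of the 6 samples, ordered by the Zfp90fl/fl mean, with Zfp90fl/fl in blue, Zfp90ΔIEC in orange, marker shapes for the replicates and bars for the means. Ccl28 lies above every other gene in all 6 samples, and for Cx3cl1 a single Zfp90ΔIEC sample at 16.7 FPKM stands far above the other 5.

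The 10 genes differed widely in level. In the Zfp90fl/fl mice Ccl28 came first, at 46.9 ± 1.31 FPKM (SD, n = 3), followed by Cxcl1 at 7.27 ± 2.07, Cxcl16 at 6.46 ± 0.397 and Ccl20 at 4.29 ± 1.03 FPKM. Cx3cl1 (2.21 ± 0.141 FPKM), Cxcl10 (2.21 ± 0.319), Cxcl2 (1.57 ± 0.220), Cxcr4 (1.33 ± 0.152), Cxcl5 (1.25 ± 0.332) and Ccl25 (0.531 ± 0.0412) followed. Along this order the sample ranges of Cxcl1 and Cxcl16 overlapped, as did those of Cx3cl1 and Cxcl10, of Cxcl2 and Cxcr4, and of Cxcr4 and Cxcl5, while the other neighbours were separated. In the Zfp90ΔIEC mice Ccl28 and Cxcl1 were again first and second, Ccl20 moved from position 4 to 6, and Cxcr4 moved from position 8 to the last, position 10, below Ccl25.

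The question for each gene was whether its transcript level under AOM-DSS differed with epithelial Zfp90. The genotypes were compared with limma on log2(FPKM + 1), with Benjamini-Hochberg adjustment over all 11564 genes that passed the filter, and a gene was called at an adjusted p under 0.05. A fold change is therefore on the log2(FPKM + 1) scale, as Zfp90ΔIEC over Zfp90fl/fl, which understates the change of genes near 1 FPKM. P-values reflect the spread between these 6 samples, 3 per genotype.

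None of the 9 genes tested was called by limma, against 0.199% of all genes tested. At an unadjusted p under 0.05 there were 4 of the 9 (Ccl20, Ccl28, Cxcl2 and Cxcr4), all with lower means in the Zfp90ΔIEC mice, against 14.6% of all genes. The same 4 were lower in every Zfp90ΔIEC sample than in any Zfp90fl/fl sample, against 12.6% of all genes, and 0 of the 9 were higher without overlap, against 8.73%. Cxcr4 reached 1 FPKM in the Zfp90fl/fl samples only, so that it entered the test through the group in which it was high, and without it 3 of 8 had an unadjusted p under 0.05. All 10 genes were chosen with earlier results of these data known, so these counts are not independent evidence of a direction. In addition, Ccl20 and Cxcr4 are in a heatmap of cytokine genes that the study drew from these samples. Without them, 2 of 7 had an unadjusted p under 0.05. The median log2 fold change of the 9 genes was -0.18, beside -0.02 over all genes tested.

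**Figure D2:**
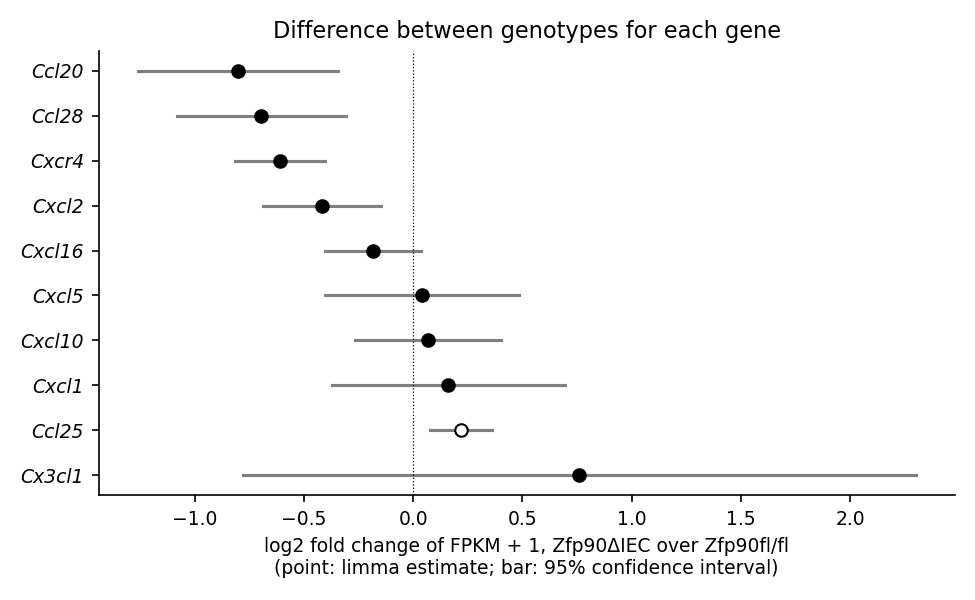
Log2 fold change of FPKM + 1, Zfp90ΔIEC over Zfp90fl/fl (horizontal axis), for each of the 10 genes, with the limma estimate as a point and its 95% confidence interval as a bar. The open point is Ccl25, taken from the fit without the filter on low values. Before adjustment for multiple testing, the intervals of Ccl20, Ccl28, Cxcr4 and Cxcl2 lie below 0 and that of Ccl25 lies above 0. The interval of Cx3cl1 is the widest.

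Among the CC chemokines, Ccl20 and Ccl28 had lower means in the Zfp90ΔIEC mice and Ccl25 a higher one, and for all 3 genes the genotypes did not overlap. Over all genes tested, 12.6% were lower and 8.73% higher without overlap. Without the filter, which Ccl25 did not reach, 5.99% were higher. Ccl20, the ligand of Ccr6 on dendritic cells, B cells and Th17 cells, was measured at 4.40, 3.21 and 5.26 FPKM in replicates 1, 2 and 3 of the Zfp90fl/fl mice, and its values in the Zfp90ΔIEC mice were 1.53, 1.79 and 2.80 FPKM. Each Zfp90ΔIEC value was below each Zfp90fl/fl value, and the nearest pair was 2.80 against 3.21 FPKM. The Zfp90fl/fl mean was 2.105 times the Zfp90ΔIEC mean of 2.04 ± 0.672 FPKM (SD, n = 3), with a log2 fold change of -0.80 (SE 0.193, 95% confidence interval -1.26 to -0.35, adjusted p = 0.134 from limma). Behind these values stood an estimated 59 to 211 fragments per sample. Fragments were estimated here and below with the longest coding transcript, and are too high where shorter ones were expressed. For Ccl20 the coding transcripts run from 772 to 1417 bases.

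Ccl28, which binds Ccr10 and Ccr3 and draws IgA plasma cells to mucosal surfaces, was the most abundant of the 10 genes in every sample. Its FPKM was 48.2, 45.6 and 46.9 in the Zfp90fl/fl samples and 28.1, 22.4 and 37.1 in the Zfp90ΔIEC samples. The 3 Zfp90fl/fl samples lay close together, with a coefficient of variation of 2.80%, and all above the Zfp90ΔIEC samples, whose coefficient of variation was 25.5%. The ratio of Zfp90fl/fl to Zfp90ΔIEC means was 1.61, and the log2 fold change was -0.69 (SE 0.163, 95% confidence interval -1.08 to -0.31, adjusted p = 0.134 from limma). With an estimated 2402 to 4966 fragments per sample, it was the most deeply sampled of the 10 genes.

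Ccl25, a ligand of Ccr9 that is made mainly in the small intestine and thymus, was listed at 0.487, 0.539 and 0.568 FPKM in the Zfp90fl/fl samples and 0.830, 0.752 and 0.762 FPKM in the Zfp90ΔIEC samples. All Zfp90ΔIEC values were above all Zfp90fl/fl values, the opposite of Ccl20 and Ccl28, at an estimated 14 to 25 fragments per sample. In the fit without the filter the log2 fold change was 0.22 (SE 0.0578, 95% confidence interval 0.08 to 0.36, adjusted p = 0.296 from limma).

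Ccl28 and Ccl20 were also compared with Epcam in the same sample, since both are epithelial products. Ccl28 stood at 0.0749 to 0.0871 of the Epcam FPKM in the Zfp90fl/fl samples and 0.0394 to 0.0627 in the Zfp90ΔIEC samples. For Ccl20 the ratio was 0.00527 to 0.00895 and 0.00272 to 0.00473. Neither ratio overlapped between genotypes. The highest Epcam value was only 1.10 times the lowest, so the ratios largely repeat the Ccl28 and Ccl20 values and are no separate check. Of the 8 epithelial markers 7 overlapped between genotypes. Krt18 was higher without overlap in the Zfp90ΔIEC mice, at 324 to 367 FPKM against 290 to 315 FPKM. Over all genes tested 8.73% were higher without overlap, so 1 of 8 is near that share. Markers of B and plasma cells, the cells that Ccl28 attracts, were near 0 in all samples, and 5 of them summed to 0.630 to 0.871 FPKM in Zfp90fl/fl and 0.123 to 0.263 FPKM in Zfp90ΔIEC mice.

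The ELR chemokines Cxcl1, Cxcl2 and Cxcl5 differed among themselves, with a lower mean for Cxcl2 and overlapping genotypes for Cxcl1 and Cxcl5. All 3 are ligands of the neutrophil receptor Cxcr2. Cxcl1 was measured at 9.15, 5.05 and 7.61 FPKM in the Zfp90fl/fl samples and 9.67, 6.00 and 8.91 FPKM in the Zfp90ΔIEC samples. Replicate 2 was the lowest of its group in both genotypes and the groups overlapped almost fully, with a log2 fold change of 0.16 (SE 0.225, 95% confidence interval -0.37 to 0.69, adjusted p = 0.785 from limma).

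Cxcl2, the neighbour of Cxcl1 on chromosome 5, was at 1.58, 1.78 and 1.34 FPKM in the Zfp90fl/fl samples and 1.08, 0.674 and 1.04 FPKM in the Zfp90ΔIEC samples. No Zfp90ΔIEC sample reached the lowest Zfp90fl/fl sample, at an estimated 36 to 93 fragments per sample. The Zfp90fl/fl mean was 1.69 times the Zfp90ΔIEC mean, and the log2 fold change was -0.42 (SE 0.114, 95% confidence interval -0.69 to -0.15, adjusted p = 0.177 from limma).

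For Cxcl5 the samples gave 0.943, 1.21 and 1.60 FPKM in Zfp90fl/fl and 1.62, 0.752 and 1.66 FPKM in Zfp90ΔIEC mice. The Zfp90ΔIEC group held both the lowest and the highest of the 6 values, and the log2 fold change was 0.04 (SE 0.188, 95% confidence interval -0.40 to 0.49, adjusted p = 0.934 from limma). The 3 ELR genes together summed to 11.7, 8.05 and 10.6 FPKM in the Zfp90fl/fl and 12.4, 7.42 and 11.6 FPKM in the Zfp90ΔIEC samples, of which Cxcl1 made up 62.8% to 78.4% and 76.8% to 80.8%. The 5 neutrophil markers measured beside them differed widely. Ly6g was at 31.1 ± 11.8 and 26.8 ± 5.62 FPKM (SD, n = 3 each) with overlap and made up nearly all of the summed level of 25.2 to 47.1 and 21.9 to 33.0 FPKM. S100a8 and S100a9 averaged 0.384 and 0.994 FPKM in the Zfp90fl/fl samples and were listed at 0 in all 3 Zfp90ΔIEC samples. Csf3r was at 0.260 to 0.277 and 0 to 0.0180 FPKM (adjusted p = 0.0177 from limma without the filter, where 15 of 27805 genes were called). Mpo was at 0.0120 FPKM or less in every sample. Thus 3 of the 5 markers, all below the filter, were lower without overlap, against 8.88% of all genes without the filter. The part of neutrophil RNA in the ELR chemokine values was not tested.

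Of the CXC chemokines without the ELR motif, neither Cxcl10 nor Cxcl16 separated the genotypes. Cxcl10, an interferon-induced ligand of Cxcr3 on T cells, was at 2.22, 1.88 and 2.52 FPKM in the Zfp90fl/fl samples and 1.83, 2.30 and 3.03 FPKM in the Zfp90ΔIEC samples. The lowest and the highest value were both in Zfp90ΔIEC mice, and the log2 fold change was 0.07 (SE 0.142, 95% confidence interval -0.27 to 0.40, adjusted p = 0.865 from limma).

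Cxcl16, a membrane-bound chemokine that is shed as a soluble ligand of Cxcr6, was at 6.07, 6.86 and 6.44 FPKM in the Zfp90fl/fl samples and 4.91, 5.46 and 6.39 FPKM in the Zfp90ΔIEC samples. The groups overlapped through Zfp90ΔIEC replicate 3, which lay above Zfp90fl/fl replicate 1. The log2 fold change was -0.18 (SE 0.0933, 95% confidence interval -0.40 to 0.04, adjusted p = 0.422 from limma), at an estimated 363 to 522 fragments per sample.

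Cx3cl1 (fractalkine), the only CX3C chemokine and likewise anchored in the membrane, rested on a single library. It was at 2.13, 2.38 and 2.14 FPKM in the Zfp90fl/fl samples and 1.91, 2.13 and 16.7 FPKM in the Zfp90ΔIEC samples. Zfp90ΔIEC replicate 3 stood 7.03 times above the highest of the other 5 samples, which lay between 1.91 and 2.38 FPKM. The log2 fold change was 0.76 (SE 0.650, 95% confidence interval -0.78 to 2.30, adjusted p = 0.641 from limma) with all samples and -0.09 (adjusted p = 0.694) without that library. The annotation lists 6 Cx3cl1 transcripts of 377 to 3315 bases. FPKM divides by transcript length, and the part of transcript choice in this value was not tested.

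**Figure D3:**
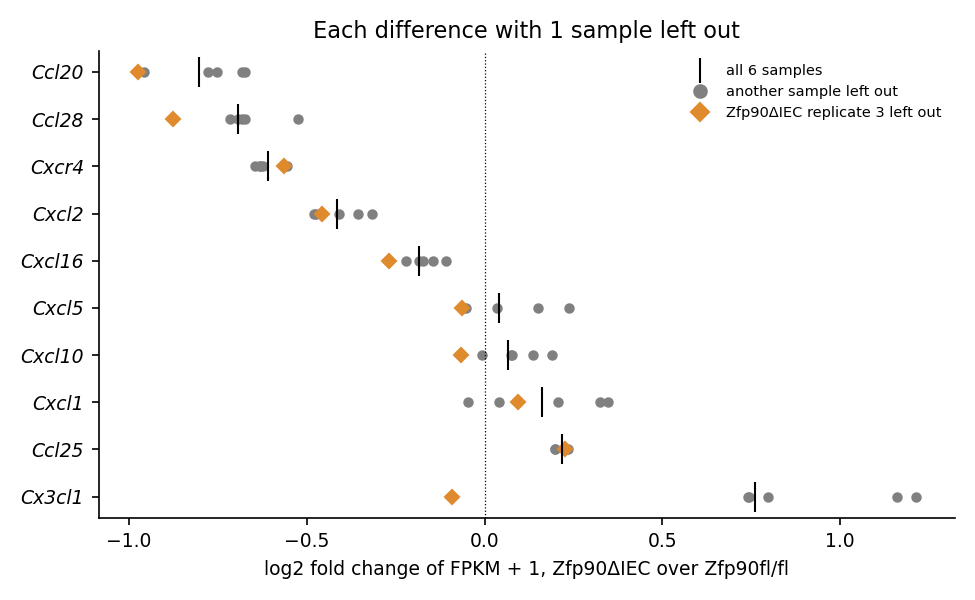
Log2 fold change of FPKM + 1 (horizontal axis) for each of the 10 genes with all 6 samples (bar), with Zfp90ΔIEC replicate 3 left out (diamond) and with each other sample left out (grey points). Ccl20, Ccl28, Cxcr4, Cxcl2 and Cxcl16 stay below 0 and Ccl25 above 0 in all 6 fits, whereas Cx3cl1 moves from 0.76 to -0.09 without Zfp90ΔIEC replicate 3.

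With each of the 6 samples left out in turn, the log2 fold change stayed between -0.98 and -0.67 for Ccl20, between -0.88 and -0.52 for Ccl28, between -0.48 and -0.32 for Cxcl2 and between -0.65 and -0.56 for Cxcr4. Those of Cxcl1, Cxcl5 and Cxcl10 took both signs.

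**Figure D4:**
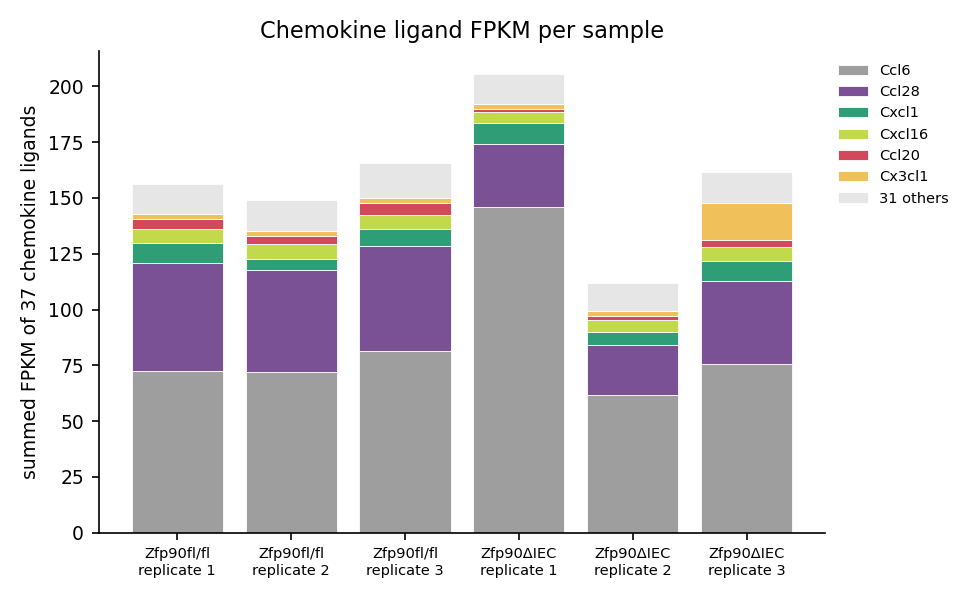
Summed FPKM (vertical axis, from 0) of 37 chemokine ligands in each sample, stacked by gene, with 31 genes of low level joined as others. Ccl6 and Ccl28 make up most of each bar. Ccl28 takes 28.3% to 30.9% of the sum in the Zfp90fl/fl samples and 13.6% to 23.0% in the Zfp90ΔIEC samples.

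Set among all chemokine ligands, Ccl28 and Ccl6 accounted for most of the ligand FPKM. Of 28 ligands outside the 9, 4 passed the filter, and of these none was called by limma and none had an unadjusted p under 0.05. Those with the highest mean were Ccl6, a CC chemokine of myeloid cells also found in gut epithelium, at 75.4 ± 5.22 and 94.5 ± 45.1 FPKM (SD, n = 3 each), Ccl9 at 3.76 ± 0.293 and 4.46 ± 1.21 FPKM, and Ccl5 at 1.86 ± 1.502 and 1.15 ± 0.190 FPKM, all with overlapping genotypes. Ccl28 made up 28.3% to 30.9% of the summed FPKM of the 37 ligands in the Zfp90fl/fl mice and 13.6% to 23.0% in the Zfp90ΔIEC mice. The 13.6% was in Zfp90ΔIEC replicate 1, where Ccl6 alone was at 145.9 FPKM, and the other Zfp90ΔIEC samples stood at 20.0% and 23.0%. Among the 9 ligands alone its share was 63.1% to 66.5% and 47.3% to 54.6%, the 47.3% being in the library with the high Cx3cl1 value. Neither share overlapped between genotypes.

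Cxcr4, the receptor of Cxcl12 that is carried by most leukocytes and by some epithelial cells, had the lowest adjusted p of the 10 genes, although it passed the filter through the Zfp90fl/fl samples alone. It was at 1.502, 1.28 and 1.21 FPKM in the Zfp90fl/fl samples and 0.576, 0.573 and 0.436 FPKM in the Zfp90ΔIEC samples, at an estimated 22 to 70 fragments. The groups were far apart, since the highest Zfp90ΔIEC value was below the lowest Zfp90fl/fl value by more than the whole spread of either group. The Zfp90fl/fl mean was 2.52 times the Zfp90ΔIEC mean, and the log2 fold change was -0.61 (SE 0.0872, 95% confidence interval -0.82 to -0.40, adjusted p = 0.0638 from limma). The adjusted p ranged from 0.0476 to 0.176 over its 13 alternatives and was under 0.05 in 1 of them, the limma fit without an intensity trend.

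**Figure D5:**
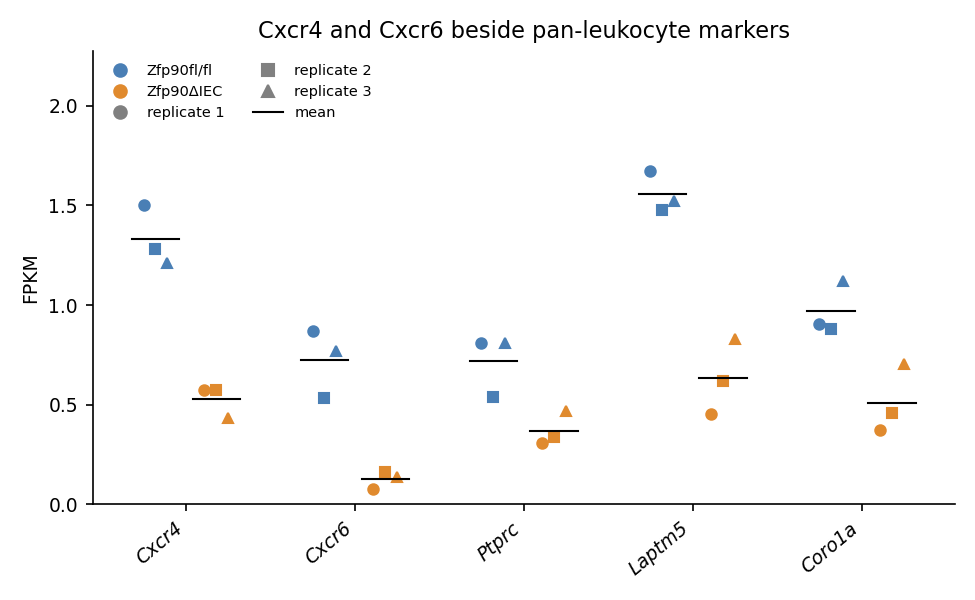
FPKM (vertical axis, from 0) of Cxcr4, Cxcr6 and the pan-leukocyte genes Ptprc, Laptm5 and Coro1a in each of the 6 samples, with Zfp90fl/fl in blue, Zfp90ΔIEC in orange, marker shapes for the replicates and bars for the means. All 5 genes are lower in every Zfp90ΔIEC sample than in any Zfp90fl/fl sample.

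Markers of leukocytes were set beside Cxcr4. Ptprc, which encodes CD45, was at 0.721 ± 0.156 and 0.371 ± 0.0875 FPKM (SD, n = 3 each), Laptm5 at 1.56 ± 0.101 and 0.635 ± 0.189 FPKM and Coro1a at 0.968 ± 0.134 and 0.511 ± 0.171 FPKM, and all 3 of 3 were lower without overlap in the Zfp90ΔIEC mice, as Cxcr4 was. Relative to Ptprc in the same sample, Cxcr4 stood at 1.85, 2.37 and 1.49 in the Zfp90fl/fl samples and 1.88, 1.71 and 0.927 in the Zfp90ΔIEC samples. This ratio overlapped between genotypes, and so did the ratios of Cxcr4 to Laptm5 and to Coro1a. Within the Zfp90ΔIEC group all 3 markers were highest in replicate 3, where Cxcr4 was lowest. The ratio to Laptm5 there ran from 1.27 in replicate 1 to 0.525 in replicate 3. With a spread this wide over 3 samples, the overlap of the ratios decides nothing. Summed macrophage markers were 7.05 to 9.58 FPKM against 3.12 to 4.30 FPKM, with 4 of 6 genes lower without overlap, and summed T cell markers were 1.12 to 2.63 against 1.03 to 1.48 FPKM, with 1 of 5. Over the 27805 genes above 0 in any sample, with no filter, 8.88% were lower without overlap and 5.99% higher. Of 4 mast cell markers, the mucosal mast cell proteases Mcpt1 and Mcpt2 were called by limma (adjusted p = 0.00271 for both). Over all genes tested, 0.199% were called. Mcpt2 reached 1 FPKM in the Zfp90fl/fl samples only, and so passed the filter through the group in which it was high. Mcpt1 fell from 11.3 ± 2.63 to 0.787 ± 0.235 FPKM (SD, n = 3 each) and Mcpt2 from 5.32 ± 1.14 to 0.288 ± 0.0634 FPKM, whereas Kit and Cpa3 overlapped, and the 4 summed to 17.0 to 25.2 against 4.99 to 9.39 FPKM. Fibroblast markers summed to 0.201 to 0.398 and 0.109 to 0.620 FPKM. Of 3 endothelial markers, only Pecam1 was higher without overlap in the Zfp90ΔIEC mice. Cdh5 and Kdr, at 0.0197 FPKM or less in every sample, overlapped. The 3 summed to 0.429 to 0.484 FPKM in the Zfp90ΔIEC against 0.197 to 0.313 FPKM in the Zfp90fl/fl mice. The part of RNA from these cells in the values of Cxcr4, Ccl20 and the other genes was not tested, and in such bulk samples fewer cells of a type and less RNA per cell cannot be told apart.

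Of the 15 genes for receptors and partners of these chemokines, 1 passed the filter (Cd74) and none was called by limma, with none at an unadjusted p under 0.05 among those that passed. Cd74, the invariant chain of MHC class II and a receptor partner of Cxcr4, was at 19.5 ± 8.07 and 11.8 ± 13.2 FPKM (SD, n = 3 each) with overlapping genotypes. Cxcr6, the receptor of Cxcl16 on T cells and innate lymphocytes, was at 0.873, 0.534 and 0.768 FPKM in the Zfp90fl/fl samples and 0.0759, 0.162 and 0.139 FPKM in the Zfp90ΔIEC samples. The Zfp90ΔIEC samples were all below the Zfp90fl/fl samples, with a log2 fold change of -0.61 (SE 0.0842, adjusted p = 0.147 from limma without the filter). Ccr10, the receptor of Ccl28, was at 0.397 ± 0.116 and 0.321 ± 0.0454 FPKM and overlapped. Below 0.15 FPKM in every sample were 10 of the 15, among them the receptors Ccr6, Ccr9 and Cxcr2 (chosen for mention after their values were seen). The highest value of these 3 receptors in any sample was 0.128 FPKM. Ccr6 and Ccr9 overlapped, whereas Cxcr2 was at 0.0117 to 0.128 FPKM in the Zfp90fl/fl samples and 0 in all Zfp90ΔIEC samples. Of the 15 genes, 4 were lower without overlap in the Zfp90ΔIEC mice (Cxcr6, Cxcr2, Cx3cr1 and Ackr4) and 0 higher. Over the 27805 genes above 0 in any sample, 8.88% were lower without overlap and 5.99% higher. Of 9 further chemokine receptors none passed the filter. Of these 9, 4 were lower without overlap (Ccrl2, Ccr7, Ccr2 and Ccr4) and 0 higher, beside the same shares. Ccrl2, an atypical receptor that binds chemerin, was the highest of these, at 1.01 ± 0.0582 and 0.498 ± 0.0523 FPKM (SD, n = 3 each) without overlap (log2 fold change -0.43, SE 0.0645, adjusted p = 0.157 from limma without the filter), followed by Ccr1 at 0.404 ± 0.136 and 0.217 ± 0.0879 FPKM and Ccr7 at 0.271 ± 0.0645 and 0.114 ± 0.0543 FPKM.

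Transcripts for proteases that release or cut chemokines were also measured. Adam10 and Adam17 shed Cx3cl1 and Cxcl16 from the membrane, and Dpp4 trims several chemokines such as Cxcl10. Of 5 such genes 4 passed the filter, none was called by limma, and 2, Adam10 and Mmp7, had an unadjusted p under 0.05 with lower means in the Zfp90ΔIEC mice, against 14.6% of all genes. Mmp7 reached 1 FPKM in the Zfp90fl/fl samples only, and so passed the filter through the group in which it was high. Adam10 was at 23.1 ± 1.07 and 20.2 ± 0.986 FPKM (SD, n = 3 each) without overlap, with a log2 fold change of -0.19 (SE 0.0626, adjusted p = 0.253 from limma). Dpp4 at 7.67 ± 0.586 and 7.47 ± 0.330 FPKM and Adam17 at 5.73 ± 0.479 and 5.51 ± 0.576 FPKM overlapped.

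Signalling genes upstream of these chemokines were mostly well expressed, and none was called. Of 14 cytokine receptors and adaptors 13 passed the filter and 4 had an unadjusted p under 0.05, all with lower means, against 14.6% of all genes tested, with a median log2 fold change of -0.11 beside -0.02 over all genes tested. The highest were Ifngr1 (76.9 ± 4.38 and 76.8 ± 2.57 FPKM), Ifngr2 (39.1 ± 2.16 and 34.1 ± 2.18 FPKM) and Il17rc (28.5 ± 1.65 and 30.2 ± 2.55 FPKM). All 11 NF-kB subunits and feedback genes passed and 5 had an unadjusted p under 0.05 with lower means, against the same 14.6%, with a median of -0.11. Nfkbia, the NF-kB inhibitor, was at 108 ± 10.3 and 120 ± 10.8 FPKM and overlapped, and so did Tnfaip3 at 22.5 ± 7.36 and 22.9 ± 1.34 FPKM. Nfkbiz, the nuclear cofactor IkB-zeta, was at 42.4 ± 3.36 and 30.6 ± 0.782 FPKM without overlap (log2 fold change -0.45, SE 0.0687, adjusted p = 0.0664 from limma). Of 10 interferon response genes 7 passed, with 1 lower and 1 higher mean at an unadjusted p under 0.05, again beside 14.6%, and a median of 0.20. Irf1 was at 36.6 ± 4.47 and 20.4 ± 3.11 FPKM without overlap (log2 fold change -0.82, SE 0.127, adjusted p = 0.0664 from limma) and Irf7 at 8.55 ± 1.07 and 12.03 ± 3.08 FPKM with overlap.

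Promoter sequences were searched for 2 motifs tied to these signals, since several of these chemokines are known to be induced through NF-kB or interferon. RefSeq promoters (GRCm38.p6) were matched for 8 of the 10 genes, not for Cxcl5 or Cxcl16. Within 250 bases upstream of the start, on both strands, the kappaB consensus was found for Ccl20, Cxcl1, Cxcl2 and Cxcl10, and in 3.90% of 32851 promoters. The sequence GAAANNGAA, part of the interferon-stimulated element, was found for Cxcl10 and in 7.13% of promoters. In the stretches below the match is in capitals, and each is written 5′ to 3′ on the strand of the gene.
Ccl20, chr1:83116666-83116715, plus strand, match to the kappaB consensus on the minus strand: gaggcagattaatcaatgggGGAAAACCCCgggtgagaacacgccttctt
Cxcl1, chr5:90891154-90891203, plus strand, kappaB: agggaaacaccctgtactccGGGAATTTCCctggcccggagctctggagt
Cxcl2, chr5:90903782-90903831, plus strand, kappaB: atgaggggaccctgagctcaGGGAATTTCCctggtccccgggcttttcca
Cxcl10, chr5:92348963-92349012, minus strand, kappaB: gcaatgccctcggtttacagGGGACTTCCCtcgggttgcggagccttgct
Cxcl10, chr5:92349074-92349122, minus strand, GAAANNGAA: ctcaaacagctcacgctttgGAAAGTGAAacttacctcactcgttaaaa
In Cxcl1 and Cxcl2 the 10 capital letters were identical, and a second match on the other strand began 1 base further on, within the same place. A further kappaB match in Cxcl10 is not shown. Of these 4 genes with the consensus, Ccl20 and Cxcl2 did not overlap between genotypes and Cxcl1 and Cxcl10 did. Among genes with a promoter but no such match in this window, Ccl28 and Cxcr4 (lower) and Ccl25 (higher) did not overlap. Cx3cl1, also without a match, did overlap. Over all genes tested, 12.6% were lower and 8.73% higher without overlap, and Ccl25 was below the filter. Whether the motif bears on these differences was not tested. A match describes the letters only.

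Of the 9 chemokine and Cxcr4 genes tested, Ccl20 had the largest absolute log2 fold change at a pseudocount of 1. The genes whose levels over the 6 samples were most like those of Ccl20 were Rps10-ps2 (Pearson r 0.995), AI837181 (0.991) and Gm48048 (0.991). Each was lower without overlap in the Zfp90ΔIEC mice, as 12.6% of all genes tested were. As they were chosen for likeness to Ccl20, which did not overlap, this is no separate result. With a pseudocount of 0.1 the log2 fold change of Cxcr4, -1.19, was larger in size than that of Ccl20, -1.05. Rps10-ps2 is a pseudogene and may share reads with Rps10. For Ccl28 the genes most alike were Pign (0.995), Dync1i2 (0.991) and Tmem64 (0.987). Correlations above 0.9 over these 6 samples were reached by 190 genes for Ccl20 and 285 for Ccl28. The samples share genotype and the libraries, and the values are a description.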

How the data were processed

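RNA-seq gene tables of 6 samples were used, 1 per sample. The FPKM values were deposited by the authors, who describe alignment with TopHat and testing with Cuffdiff against a human build in their methods, whereas the submitters' processing notes name FastQC, STAR 2.5, Cuffnorm, DESeq 1.22.1 and mm9. The unit was taken from these tools and from the values, and gene IDs and positions were read from GENCODE M21 (GRCm38). No read counts were used, and depth was estimated from steps in the low values (59.3% to 66.8% of them within 0.1 of a step). Of 52550 IDs 52403 had a symbol, and 147 did not.

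Tests took the genes that reached 1 FPKM in 3 or more samples and were made with limma 3.58.1 (R 4.3.3, intensity trend) on log2(FPKM + 1) with Benjamini-Hochberg adjustment over 11564 genes. Genes below the filter were read from the same fit without it. The scripts were tested on simulated data. Python 3.11.15 with pandas 2.3.3, numpy 2.4.6, matplotlib 3.10.9 and biopython 1.88 was used for the rest.

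The 10 genes and the gene lists were chosen with earlier results of these data known. Named were the 10 genes, Zfp90, for each list of related genes those called or else the 3 with the highest mean FPKM, and the 3 genes most correlated with Ccl20 and with Ccl28. Other genes (Mmp7, overlapping genes, receptors that did not overlap between genotypes, genes of the marker lists) were named after their values were seen. One gene that this rule names is not reported here. Alternatives changed the pseudocount, the filter, the scaling, the trend, the replicate block, the threshold and the samples. The study gives its replicates as mice, and p-values and intervals cover only the spread between these samples.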

Additional observations from a re-analysis of the deposited data

How the results depend on the processing

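The count of called genes over all genes tested, 23, became 13 with a pseudocount of 0.1, 15 without the filter on low values, 47 with the replicate block, 176 at an adjusted p under 0.1 and 10 to 21 with each sample left out in turn (10 without Zfp90fl/fl replicate 2). The count among the 9 chemokine and Cxcr4 genes tested, 0, became 1 (Cxcr4) without the intensity trend and 1 at an adjusted p under 0.1, and stayed at 0 with each sample left out. The cause was not tested. With 1 sample left out at a time, log2 fold changes took both signs for Cxcl1 (-0.048 to 0.35, negative without Zfp90fl/fl replicate 2), Cxcl5 (-0.063 to 0.24, negative without Zfp90fl/fl replicate 1, Zfp90ΔIEC replicate 1 or Zfp90ΔIEC replicate 3), Cxcl10 (-0.066 to 0.19, negative without Zfp90fl/fl replicate 2 or Zfp90ΔIEC replicate 3) and Cx3cl1 (-0.091 to 1.21, negative without Zfp90ΔIEC replicate 3). Ccl20, Ccl25, Ccl28, Cxcl2, Cxcl16 and Cxcr4 kept their direction in every alternative. Deviations from the group mean correlated over genes between the genotypes at 0.194, 0.110 and 0.078 for replicate numbers 1, 2 and 3, and 6 of 6 samples correlated best with their own number, a hint from the data that is not in the labels. With the replicate block none of the 10 genes was called. Cxcr4, Ccl25, Cxcl2 and Cxcl5 rested on fewer than 100 estimated fragments in every sample.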

Other observations

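Within-sample ratios between chemokines were looked at after the values had been seen and were not tested. Cxcl1 stood at 5.78, 2.83 and 5.67 times Cxcl2 in the Zfp90fl/fl samples and at 8.96, 8.89 and 8.60 times in the Zfp90ΔIEC samples, without overlap, although the genes are neighbours on chromosome 5. Ccl28 stood at 82.6 to 99.0 times Ccl25 in the Zfp90fl/fl samples and 29.8 to 48.7 times in the Zfp90ΔIEC samples. Both ratios involve a gene with fewer than 100 estimated fragments per sample. Of the 28 other ligands 4 did not overlap between genotypes, all below the filter. Over the 27805 genes above 0 in any sample 8.88% were lower and 5.99% higher without overlap. Ccl22, a chemokine of dendritic cells and macrophages, was lower, at no less than 0.102 FPKM in the Zfp90fl/fl and 0 to 0.0461 FPKM in the Zfp90ΔIEC samples, and Cxcl11, an interferon-induced ligand of Cxcr3, was higher, at 0.0751 to 0.0904 and 0.0986 to 0.246 FPKM. Ccl4 and Pf4, chemokines of T cells and macrophages and of platelets, were lower, at 0.282 ± 0.227 and 0.0181 ± 0.0313 FPKM (SD, n = 3 each) and at 0.473 ± 0.199 and 0.115 ± 0.103 FPKM.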
